A study of Mus musculus with 14 samples.

Results

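The genes described here are 8 osteoclast genes, Nfatc1, Oscar, Calcr, Dcstamp, Ocstamp, Atp6v0d2, Acp5 and Ctsk, followed through cultures of bone marrow mesenchymal stromal cells (MSC) with and without interleukin-1β (IL-1β). They were chosen by name, with earlier results of these data known, and each matched 1 of the 55487 genes in the count tables. The MSC came from marrow of C57BL/6 mice, were kept in DMEM with serum for 21 days and were exposed to PBS (2 libraries, replicates 2 and 3) or to 5 ng/ml IL-1β (2 libraries, replicates 1 and 2) for 72 h. For comparison, sorted bone marrow LSK cells (lineage-negative, Sca-1-positive, Kit-positive stem and progenitor cells) and LK cells (lineage-negative, Kit-positive progenitors, also labelled MP) came from mice that had received, after lethal irradiation, bone marrow with heterozygous Jak2V617F switched on by the interferon-inducible Mx1Cre. Those mice were injected intraperitoneally with PBS (3 LSK and 3 LK libraries) or 0.5 μg IL-1β per dose (2 LSK and 2 LK libraries), 3 doses per week for 16 weeks. No Jak2 mutation is given for the MSC, so genotype, culture and the route and length of treatment all differ together between MSC and sorted cells and cannot be told apart. The labels do not tie the libraries of a group to separate cultures or animals, so p-values measure the spread between these libraries.

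Osteoclasts are large cells with many nuclei that form by fusion of precursors of the monocyte and macrophage lineage and resorb bone. The cytokine RANKL, made by stromal and osteoblast-lineage cells, acts on the receptor RANK together with the growth factor M-CSF and drives the transcription factor NFATc1, which switches on genes of fusion, acid secretion and matrix digestion. Macrophages share part of this program, and plastic-adherent bone marrow cultures can hold macrophages beside stromal cells.

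The libraries held between 4393233 and 30871055 read pairs assigned to genes, and the 4 MSC libraries 5834909 and 13155033 (PBS replicates 2 and 3) and 30871055 and 11681794 (IL-1β replicates 1 and 2). Markers of both lineages were read in the MSC libraries. The summed level of 18 macrophage markers, in counts per 1000000 (CPM) on a scaling common to the 14 libraries, was between 27489 and 31267 under PBS and between 55185 and 56652 under IL-1β, and none of the 18 was at 0 in any MSC library. Without Lyz2, the lysozyme gene that carried most of this rise, the sum was 22827 and 21664 under PBS and 31589 and 30278 under IL-1β. The median marker overlapped between treatments, at 913 and 811 CPM under PBS and 1024 and 904 under IL-1β. The 15 mesenchymal markers summed to between 1949 and 3633 under PBS and between 5155 and 5491 under IL-1β. Lepr, a marker of perivascular stromal cells, had no read pairs under PBS and 5 and 6 under IL-1β, whereas Col1a1, the main collagen of stromal cells and bone, had at least 4885. Osteoblast and osteocyte markers summed to between 3161 and 3931 under PBS, nearly all of it Spp1, a matrix protein that macrophages also make, while Bglap, the osteoblast gene for osteocalcin, had 8 read pairs or fewer. MSC PBS replicate 3 stood apart from the other MSC libraries, with 0 read pairs of Xist against 325, 535 and 2103. Ddx3y, a Y-linked gene, was read in all 4, at 258 and 1067 under PBS and 1992 and 755 under IL-1β. Results for the 8 genes are therefore given without PBS replicate 3 where leaving it out changed whether a gene passed.

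**Figure D1:**
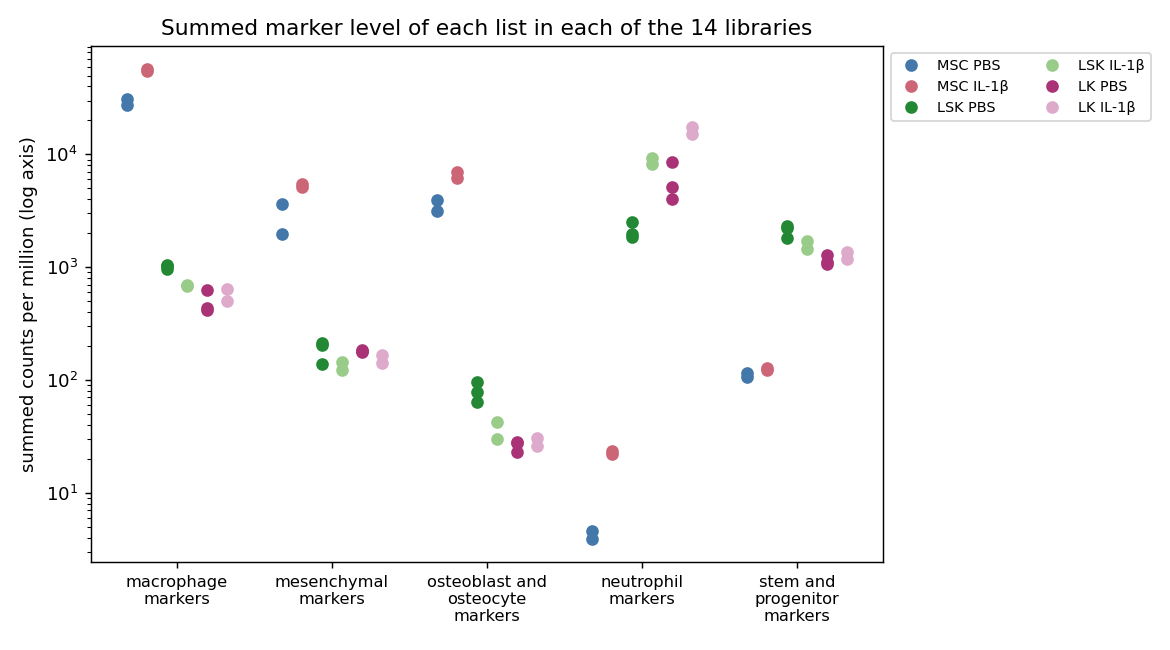
Summed level of each marker list (vertical axis, CPM on a log axis) in each of the 14 libraries, coloured by group (points are libraries). The macrophage list is highest in the MSC libraries, where it is higher under IL-1β than under PBS, and the neutrophil list is lowest there.

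Of the 8 genes, 5 were read deeply enough in the MSC libraries to be tested (Nfatc1, Dcstamp, Atp6v0d2, Acp5 and Ctsk), and 3 were not (Oscar, Calcr and Ocstamp). Acp5, the tartrate-resistant acid phosphatase used to stain osteoclasts, was the 1 gene that passed the test (adjusted p under 0.05 over all genes, with a log2 change of more than 0.5 in either direction). It rose 6.00-fold. The other 4 tested genes did not pass, although the 2 treatments did not overlap for any of the 5. Across all 13239 genes tested, 11.4% passed (7.14% higher and 4.31% lower) and 61.2% did not overlap, so non-overlap between 2 and 2 libraries was common to most genes. The median log2 fold change of the 5 tested genes was -0.39, beside 0.00437 over all genes tested. In bulk libraries, fewer cells of a type and less RNA per cell cannot be told apart.

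**Figure D2:**
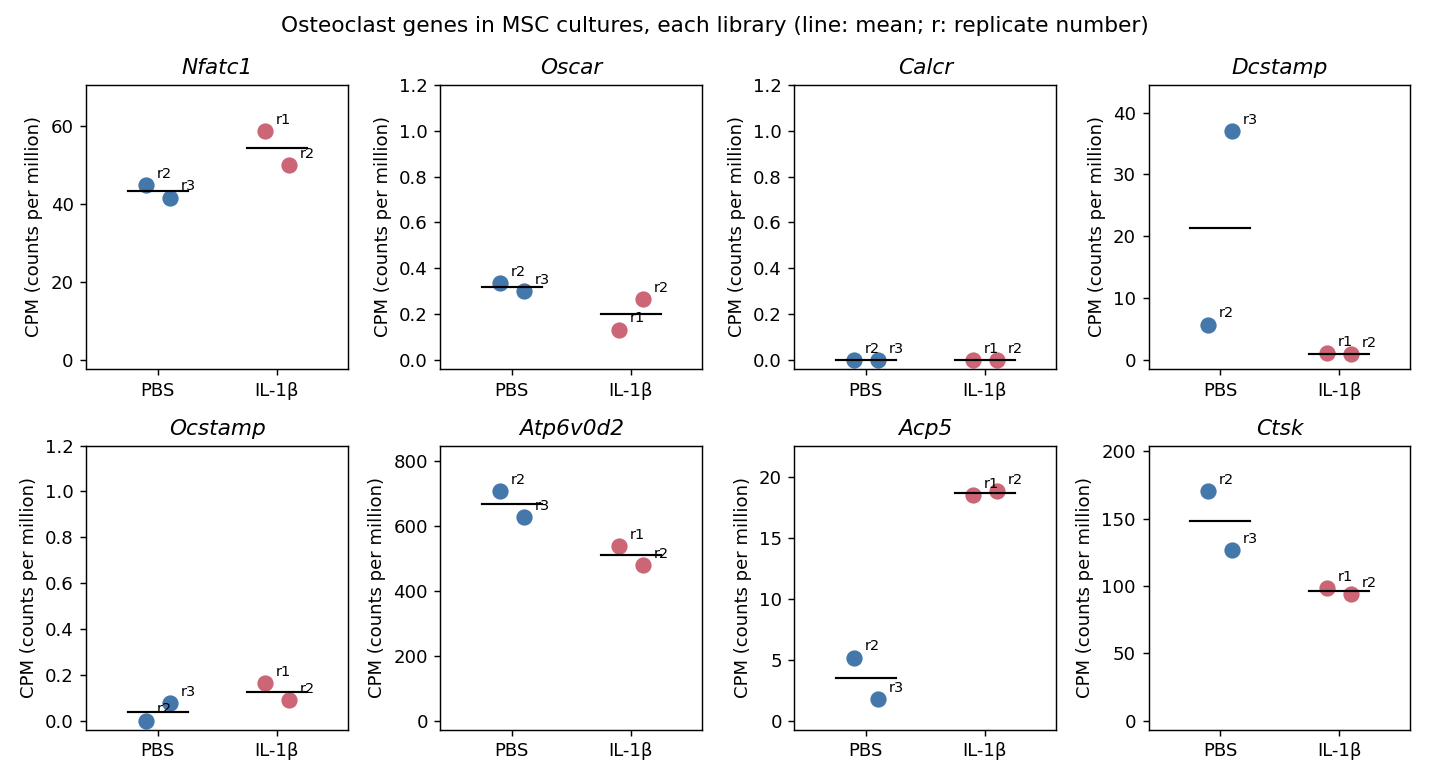
Level of the 8 osteoclast genes (vertical axes, CPM) in the 4 MSC libraries under PBS and IL-1β (points are libraries, r gives the replicate number, lines are means). Both IL-1β libraries lie above both PBS libraries for Acp5 and Nfatc1 and below them for Dcstamp, Atp6v0d2 and Ctsk, and Calcr is at 0 throughout.

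Nfatc1 encodes the master transcription factor of osteoclast formation and lies at chr18:80606205-80713071 on the minus strand (GRCm38, Ensembl release 100, as are all gene positions here). It had 269 and 553 read pairs under PBS and 1795 and 568 under IL-1β, which corresponded to 44.9 and 41.6 CPM under PBS and 58.9 and 50.1 under IL-1β. Both IL-1β libraries were above both PBS libraries, by a small margin. The log2 fold change of 0.34 (SE 0.13, 95% confidence interval 0.03 to 0.65) did not pass (edgeR adjusted p = 0.138). None of the 10 genes of the NFAT and calcineurin list passed. Their estimates were positive for 7, among them Nfatc2 at a log2 fold change of 0.25, Nfatc3 at 0.50 and Nfatc4 at 0.26. They were negative for 3, Rcan2 at -0.68, Rcan1 at -0.60 and Ppp3ca at -0.07.

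Oscar (chr7:3609813-3616157, minus strand), a receptor that co-stimulates osteoclast precursors through collagen binding, had 2 and 4 read pairs under PBS and 4 and 3 under IL-1β. Calcr (chr6:3685680-3764714, minus strand), the receptor through which calcitonin inhibits mature osteoclasts, had 0 read pairs in all 14 libraries. In the deepest MSC library, IL-1β replicate 1, a count of 0 allows up to 0.0984 CPM (3 read pairs), an interval that covers counting error only. Calcrl, which encodes a related receptor for other peptides, was read at 116 to 738 read pairs in the same libraries and its log2 change of 0.26 did not pass (edgeR adjusted p = 0.333).

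Dcstamp (chr15:39745930-39760938, plus strand) encodes a membrane protein needed for precursors to fuse. It had 34 and 492 read pairs under PBS and 31 and 10 under IL-1β, or 5.67 and 37.1 CPM under PBS and 1.02 and 0.882 under IL-1β. The PBS libraries differed far more from each other than the IL-1β libraries did, and PBS replicate 3 alone held most of the reads. The log2 fold change of -4.50 (SE 1.04, 95% confidence interval -7.30 to -1.71) did not pass (edgeR adjusted p = 0.0652). Without PBS replicate 3 it was -2.53 and passed (edgeR adjusted p = 0.000352), as it did without PBS replicate 2, at -5.23. With a lone PBS library, though, the spread came from the 2 close IL-1β libraries alone. Without an IL-1β library, where the lone library was assumed to vary like the PBS group, the adjusted p was 0.472 or 0.488. With all 4 libraries it passed by DESeq2 (adjusted p = 0.00253). The estimate was negative in all these fits, and its size differed with the PBS library used.

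Ocstamp (chr2:165393760-165400405, minus strand), which encodes the partner of Dcstamp in fusion, had 0 and 1 read pairs under PBS and 5 and 1 under IL-1β. That is too few for a comparison. Dcstamp was thus read without a comparable level of Ocstamp in PBS replicate 3, the library in which Dcstamp was highest.

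Atp6v0d2 (chr4:19876841-19922605, minus strand) encodes the d2 subunit of the proton pump that acidifies the resorption space, and it also takes part in fusion. It was by far the most abundant of the 8 genes, with 4242 and 8347 read pairs under PBS and 16445 and 5448 under IL-1β, and it took between 74.5 and 75.8% of the read pairs of the 8 genes in each MSC library. The levels of 707 and 629 CPM under PBS and 539 and 481 under IL-1β did not overlap. The log2 fold change was -0.39 (SE 0.12, 95% confidence interval -0.69 to -0.08) and did not pass (edgeR adjusted p = 0.100). Against its widely expressed paralog Atp6v0d1, the ratio per length of read pairs was 1.85 and 2.02 under PBS and 1.68 and 1.46 under IL-1β. In the sorted cells that ratio was 0.0077 or lower.

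Acp5 (chr9:22126727-22135711, minus strand) had 31 and 23 read pairs under PBS and 564 and 213 under IL-1β. On the normalised scale these were 5.17 and 1.73 CPM under PBS and 18.5 and 18.8 under IL-1β, so the IL-1β libraries lay close together and well above both PBS libraries. The log2 fold change was 2.58 (SE 0.46, 95% confidence interval 1.44 to 3.73, edgeR adjusted p = 0.027). It was 1.85 without PBS replicate 3 and 3.43 without PBS replicate 2, and passed in both cases, with the spread taken from the 2 close IL-1β libraries alone. It was 2.53 without IL-1β replicate 1 and 2.50 without IL-1β replicate 2, and did not pass then (edgeR adjusted p = 0.285 and 0.248), when 1 library stood for the treated group and the spread came from the PBS pair. The design of 2 against 2 libraries gave more false calls in simulated data than the nominal rate, which bears on this call and on the list genes below. The 2.58 difference in Acp5 went with the higher sum of the macrophage markers given above, and the part of those cells in it was not tested.

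Ctsk (chr3:95499256-95509362, plus strand) encodes cathepsin K, the protease that digests bone collagen and that fibroblasts also make. It had 1020 and 1680 read pairs under PBS and 3002 and 1065 under IL-1β, or 170 and 127 CPM under PBS and 98.4 and 94.0 under IL-1β. Both IL-1β libraries were below both PBS libraries. The log2 fold change was -0.62 (SE 0.16, 95% confidence interval -1.01 to -0.23), just short of the threshold (edgeR adjusted p = 0.0584). It passed without PBS replicate 3, at -0.81, with the spread taken from the 2 close IL-1β libraries alone, and was -0.38, under the size threshold, without PBS replicate 2. It did not pass without IL-1β replicate 1 or 2, at -0.65 and -0.59 (edgeR adjusted p = 0.436 and 0.394). It also passed by DESeq2 (adjusted p = 0.00973) and by limma-voom (adjusted p = 0.0497). Acp5 and Ctsk, both enzymes of the resorbing cell, therefore had estimates of opposite sign in the same 4 libraries.

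**Figure D3:**
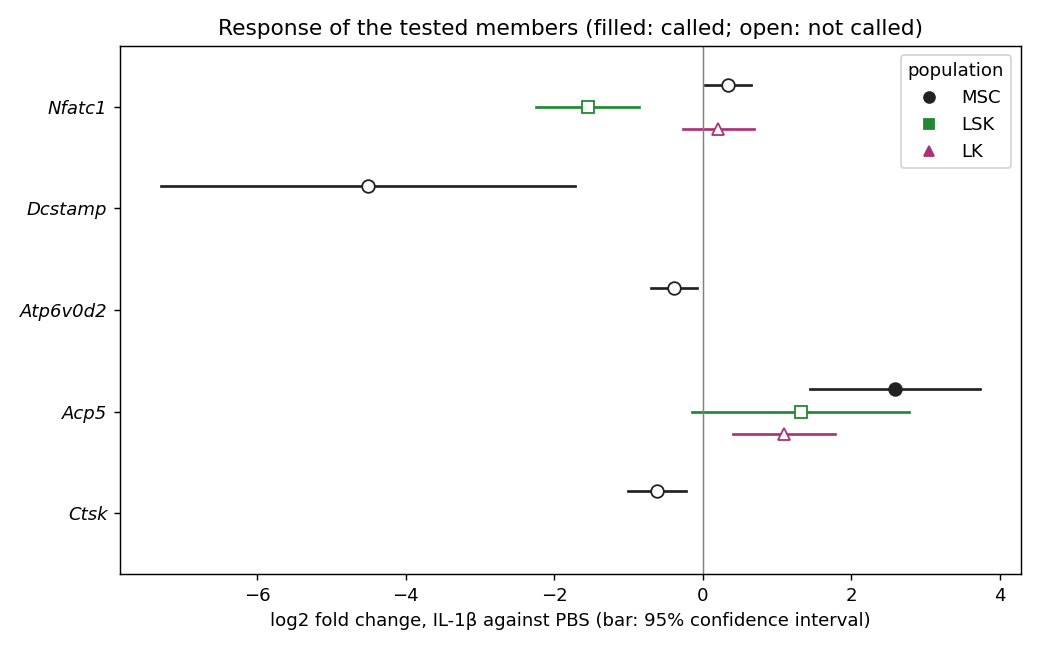
Log2 fold change of IL-1β against PBS (horizontal axis) for the 5 tested osteoclast genes in MSC and, where tested, in LSK and LK cells (bars are 95% confidence intervals, filled symbols passed the test). Acp5 in MSC at 2.58 is the 1 filled symbol.

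The upstream sequences of Acp5 and Ctsk are shown because the estimates of these enzymes had opposite signs. Windows of 250 bases before a RefSeq start (GRCm38.p6) were found for Acp5 (3 starts), Ctsk (1), Calcr (2) and Oscar (1) among the 8 genes. They are written 5′ to 3′ on the strand of the gene, with capitals marking, on either strand, the NFAT core GGAAA, the PU.1 core GAGGAA, the AP-1 site TGANTCA, and the E-boxes CATGTG and CACGTG of the MITF family. The NFAT and PU.1 cores share the letters GGAA, but no match overlapped another in these windows.
Acp5, chr9:22135747-22135996, minus strand: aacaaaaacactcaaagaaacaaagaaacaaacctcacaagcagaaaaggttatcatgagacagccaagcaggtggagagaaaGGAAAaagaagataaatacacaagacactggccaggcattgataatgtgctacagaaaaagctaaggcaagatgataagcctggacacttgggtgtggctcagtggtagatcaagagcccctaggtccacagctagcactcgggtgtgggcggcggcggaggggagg
Acp5, chr9:22131866-22132115, minus strand: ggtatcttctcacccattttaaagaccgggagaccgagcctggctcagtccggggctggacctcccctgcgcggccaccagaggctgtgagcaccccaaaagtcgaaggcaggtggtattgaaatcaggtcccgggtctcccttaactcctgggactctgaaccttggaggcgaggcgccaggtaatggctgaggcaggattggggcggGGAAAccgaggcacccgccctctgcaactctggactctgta
Acp5, chr9:22130599-22130848, minus strand: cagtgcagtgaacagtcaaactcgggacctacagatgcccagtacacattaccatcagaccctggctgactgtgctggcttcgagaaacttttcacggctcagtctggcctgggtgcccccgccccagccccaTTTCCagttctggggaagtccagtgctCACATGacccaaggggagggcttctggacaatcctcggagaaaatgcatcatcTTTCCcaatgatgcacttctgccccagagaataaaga
Ctsk, chr3:95498960-95499209, plus strand: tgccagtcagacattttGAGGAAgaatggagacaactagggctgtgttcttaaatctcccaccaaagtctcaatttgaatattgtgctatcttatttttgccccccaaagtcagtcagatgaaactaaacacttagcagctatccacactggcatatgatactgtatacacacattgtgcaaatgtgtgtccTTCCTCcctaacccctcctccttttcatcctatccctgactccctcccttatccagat
The Acp5 start nearest the coding part held 2 NFAT cores and 1 CATGTG E-box, which these 250 bases show as its reverse complement CACATG, as TTTCC shows the NFAT core and TTCCTC the PU.1 core. Each of the other Acp5 starts held 1 NFAT core. Of the printed bases, 10 of the E-box window lie in an annotated Acp5 exon and none of the others does. Ctsk held 2 PU.1 cores. None of the 4 windows held an AP-1 site or CACGTG. Of all 32851 promoter windows of that length, 55.6% held an NFAT core, 23.3% a PU.1 core, 12.3% CATGTG, 6.75% an AP-1 site and 6.02% CACGTG. A match is a description of the letters, and counts per gene do not say which Acp5 start was used.

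Levels between genes were compared per kilobase of exon. Under PBS, Atp6v0d2 led in MSC at 294 ± 19.4 CPM per kilobase (SD, n = 2), followed by Ctsk at 117 ± 22.3, Dcstamp at 9.69 ± 10.1, Nfatc1 at 6.93 ± 0.242 and Acp5 at 2.02 ± 1.40. Oscar and Ocstamp were at 0.206 and 0.0125. Atp6v0d2, Ctsk and the rest were separated by more than their spread, whereas Dcstamp could not be ordered against Nfatc1 or Acp5 because of its range between libraries. Under IL-1β, the order was Atp6v0d2 at 231 ± 27.2, Ctsk at 78.3 ± 5.44, Acp5 at 11.3 ± 0.286, Nfatc1 at 8.99 ± 1.35 and Dcstamp at 0.439 ± 0.0599 (SD, n = 2). Acp5 thus stood below Nfatc1 per length under PBS and above it under IL-1β, in both libraries each time. Other lysosomal proteases were far more abundant than cathepsin K, with Ctss at 5154, Ctsd at 4796 and Ctsb at 3435 CPM per kilobase under PBS.

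The sorted cells carried a different subset of the genes. Ctsk, Atp6v0d2 and Dcstamp entered the fit of all libraries through their MSC reads alone, so they could only come out higher in MSC, and their levels are given as a description. Of the genes read in every population, Nfatc1 and Acp5, Nfatc1 passed against LK and neither passed against LSK. Over all 15393 genes in that fit, 58.4% passed against LSK (31.2% higher and 27.2% lower) and 60.9% against LK (31.9% higher and 29.0% lower), so most genes differ between such unlike populations.

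**Figure D4:**
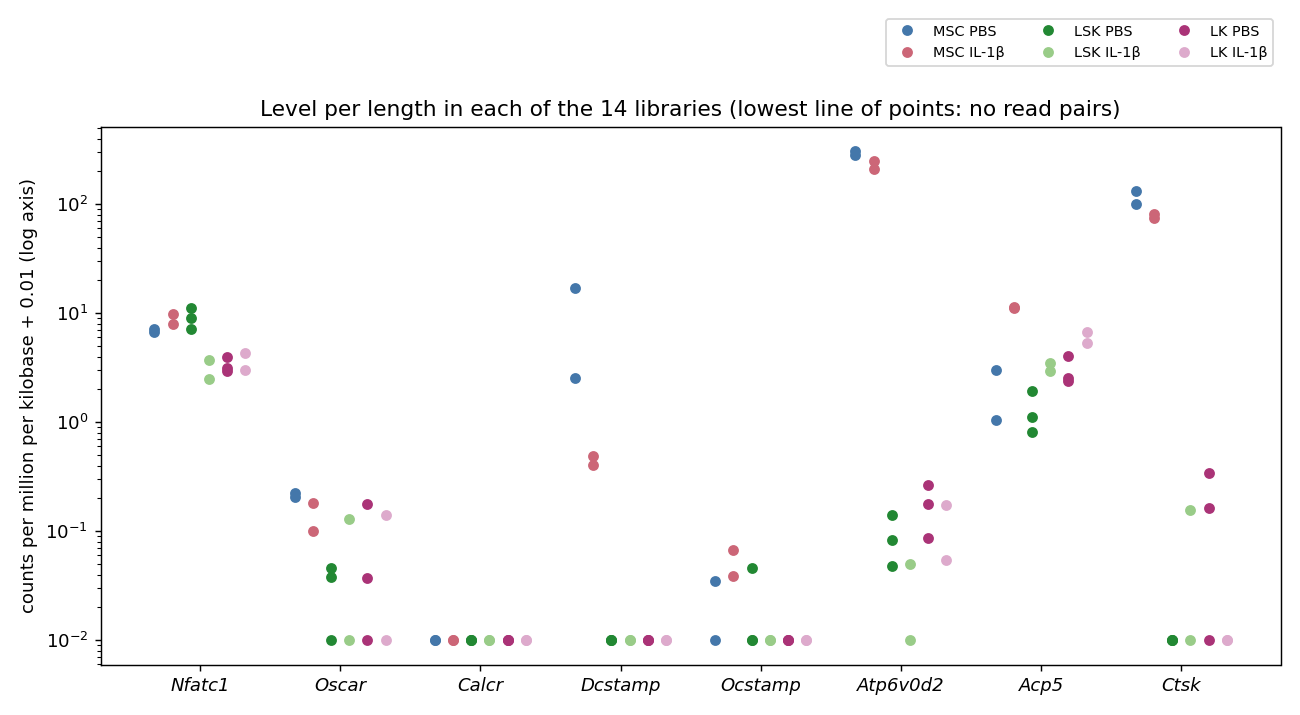
Level per length (vertical axis, CPM per kilobase plus 0.01, log axis) of the 8 osteoclast genes in each of the 14 libraries, coloured by group (points are libraries). Atp6v0d2, Ctsk and Dcstamp are high in MSC and near or at no reads in LSK and LK, whereas Nfatc1 and Acp5 are read in all 6 groups.

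Ctsk had 2700 read pairs over the MSC PBS libraries, none over the LSK PBS libraries and 13 over the LK PBS libraries. This made it at least 2735-fold higher in MSC than in LSK, against a floor of 3 read pairs over the group, and 612-fold higher than in LK (95% exact counting interval 357 to 1152). The LK PBS libraries held 3, 10 and 0 of its read pairs. Its fitted log2 difference from LK, 9.30, ranged from 8.78 to 10.5 when 1 library was left out, which is wider than that interval. Dcstamp had 526 read pairs in MSC and none in LSK or LK, at least 533-fold and 517-fold higher. MSC PBS replicate 3 held 492 of these, and without it the bounds were 109-fold and 106-fold. Atp6v0d2 had 12589 read pairs in MSC, 10 in LSK and 21 in LK, ratios of 3825 (2079 to 7979) and 1767 (1156 to 2856). The intervals and bounds of these 3 genes pool reads over libraries. They cover counting error only and not the spread between libraries.

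Nfatc1 and Acp5, by contrast, were read in every library of all 3 populations. Nfatc1 under PBS was 51.8 ± 1.81 CPM in MSC (SD, n = 2), 67.9 ± 14.8 in LSK (SD, n = 3) and 25.0 ± 4.13 in LK (SD, n = 3) on the common scaling. It was higher in MSC than in LK by a log2 difference of 1.05 (SE 0.24, edgeR adjusted p = 0.00163), and its difference from LSK of -0.39 (95% confidence interval -0.91 to 0.13) did not pass. Acp5 under PBS was 4.11 ± 2.84 in MSC, 2.60 ± 1.18 in LSK and 6.09 ± 1.89 in LK. Its differences of 0.58 (95% confidence interval -0.45 to 1.62) from LSK and -0.62 (-1.66 to 0.41) from LK did not pass, and each turned sign when 1 MSC PBS library was left out, to -0.32 from LSK without replicate 2 and to 0.00489 from LK without replicate 3. Without MSC PBS replicate 2, Acp5 was lower in MSC than in LK by a difference of -1.53 that passed (edgeR adjusted p = 0.0391).

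In the sorted cells of IL-1β-treated mice, Nfatc1 and Acp5 were the 2 genes deep enough to test, and neither passed in LSK or in LK. At an unadjusted p under 0.05 there was 1 in LSK (Nfatc1) and 1 in LK (Acp5), beside 18.5% of all genes in LSK and 16.9% in LK that had such a p and changed by more than 0.5 on the log2 scale. Of all genes tested, 0.632% passed in LSK (0.32% higher and 0.312% lower) and 9.34% in LK (6.77% higher and 2.57% lower). Nfatc1 in LSK was at 91.9, 59.4 and 76.0 CPM under PBS (replicates 1 to 3) and at 30.5 and 20.8 under IL-1β. All IL-1β libraries were below all PBS libraries, with a log2 fold change of -1.55 (SE 0.31, 95% confidence interval -2.25 to -0.86) that missed the threshold (edgeR adjusted p = 0.0635). It passed without LSK PBS replicate 2, at -1.68 (edgeR adjusted p = 0.0366), and by DESeq2 (adjusted p = 0.000651). In the same LSK libraries the 8 dendritic cell markers summed to between 316 and 364 CPM under PBS and between 84.3 and 89.0 under IL-1β, while in LK they summed to between 81.1 and 101 and between 41.4 and 43.0. The median of the 8 in LSK was only 1.16 to 4.35 CPM under PBS and 0 and 0.443 under IL-1β, so part of the list carried the sums. The list includes Flt3 (CD135), by which the paper also gated multipotent progenitors within LSK cells. The part of these markers in the Nfatc1 values was not tested. In LK, Nfatc1 overlapped between treatments, at 22.3 to 30.8 CPM under PBS and 24.2 and 35.1 under IL-1β, with a log2 fold change of 0.21 (95% confidence interval -0.27 to 0.69). That estimate turned to -0.10 without LK IL-1β replicate 1.

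The response of Nfatc1 differed between MSC and LSK. In the fit of all 14 libraries, the response in MSC minus that in LSK was 1.92 on the log2 scale (SE 0.37, 95% confidence interval 1.13 to 2.71, edgeR adjusted p = 0.00781). Of all genes in that fit, 9.27% passed in this difference (5.37% higher and 3.9% lower), and the median over all genes was 0.15. The value was 1.90 without MSC PBS replicate 3 and 1.77 without MSC IL-1β replicate 1, and just missed the threshold then (edgeR adjusted p = 0.0501 and 0.0545). The difference from LK, 0.24 (95% confidence interval -0.53 to 1.02), did not pass, beside 2.04% of all genes that did (1.24% higher and 0.799% lower). Il1r1, the IL-1 receptor, was read in all groups, and under PBS was at 5.92 and 9.32 CPM in MSC, between 43.7 and 59.5 in LSK and between 4.27 and 6.97 in LK.

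Acp5 had a positive estimate in each population. In LSK it was at 1.80 to 4.45 CPM under PBS and at 6.69 and 7.93 under IL-1β, without overlap, and the log2 fold change of 1.32 (95% confidence interval -0.14 to 2.78) did not pass (edgeR adjusted p = 0.308). In LK it was at 4.94 to 8.42 under PBS and 14.8 and 11.7 under IL-1β, again without overlap, with a log2 fold change of 1.10 (SE 0.30, 95% confidence interval 0.41 to 1.78) just short of the threshold (edgeR adjusted p = 0.0529). Treatments did not overlap for 39.6% of all genes tested in LSK and 45.7% in LK. The LK estimate passed without LK PBS replicate 1 or replicate 3, at 1.37 and 1.02, and by DESeq2 (adjusted p = 0.0193). The 10 neutrophil markers summed to between 1852 and 2492 CPM under PBS and between 8266 and 9306 under IL-1β in LSK, and to between 4044 and 8623 and between 15293 and 17618 in LK. The median of the 10 in LSK was only 0.232 to 1.29 CPM under PBS and 14.5 and 3.33 under IL-1β. In LK it was 0.377 to 2.81 and 78.5 and 27.7, so part of the list carried the sums. The macrophage markers summed to between 972 and 1034 under PBS and between 682 and 695 under IL-1β in LSK. In LK they overlapped between treatments, at 414 to 624 under PBS and 497 and 641 under IL-1β. The part of these markers in the Acp5 values was not tested. The response of Acp5 in MSC exceeded that in LSK by 1.23 (-0.27 to 2.72) and that in LK by 1.52 (0.06 to 2.99), and neither difference passed (edgeR adjusted p = 0.288 and 0.370). The unadjusted p of the difference from LK was 0.0426, beside 12.5% of all genes with one under 0.05 and a difference of more than 0.5.

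Genes around the 8 in the osteoclast program, and markers of other cell types, were followed in MSC through 16 fixed lists. These lists were chosen with earlier results of these data known. Of 152 tested genes on all 16 lists, cell type markers included, 40 passed, or 26.3% (18.4% higher and 7.89% lower). The 8 are not among them. Over all genes tested, 11.4% passed (7.14% higher and 4.31% lower). Of the 8 genes for ligands and the decoy receptor, 3 rose (Il1b by 6.36, Il6 by 6.34 and Il1a by 3.09 on the log2 scale) and 1 fell, Csf1, which encodes M-CSF, by 0.87. The median of this list was 1.64. Tnfsf11, which encodes RANKL, had 2 and 0 read pairs under PBS and 73 and 19 under IL-1β, and its log2 change of 4.14 just missed the threshold (edgeR adjusted p = 0.0517). Its decoy Tnfrsf11b had 170 and 37 read pairs under PBS and 174 and 78 under IL-1β, and its log2 fold change of -1.23 (SE 1.08) did not pass.

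Of 13 signalling receptors and adaptors, 12 were tested. Csf1r, the M-CSF receptor, rose by 1.25, Trem2, a lipid-sensing receptor of macrophages and osteoclast precursors, fell by 0.68, and the list median was -0.08. Tnfrsf11a, which encodes RANK, was at 62.5 CPM under PBS and 57.1 under IL-1β, and its log2 change of -0.13 did not pass (edgeR adjusted p = 0.452). Of 16 transcription factors, 3 rose and none fell, namely the NF-κB subunits Relb (0.98) and Nfkb2 (0.75) and the AP-1 member Fosl2 (0.69), with a median of 0.22. Of 9 tested brakes on osteoclast formation, Nfkbia, the NF-κB inhibitor, rose by 1.03 and Rbpj, the nuclear effector of Notch, by 0.95, with a median of 0.58.

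Of 10 tested genes of fusion and the cell surface, the integrin chain Itgb3 fell by 1.29, the scavenger receptor Cd36 by 1.15 and the tetraspanin Cd9 by 0.91, while P2rx7, an ATP-gated channel, rose by 0.80, and the median was -0.11. Of 13 tested resorption genes, Mmp14, a membrane collagenase, rose by 1.58, Src, a kinase of the ruffled border, by 0.65 and Clcn7, a lysosomal chloride transporter, by 0.61, and Ckb, brain-type creatine kinase, fell by 1.37, with a median of 0.32. Of 19 tested V-ATPase subunits, Atp6v0c rose by 0.52 and Atp6v0a1 and Atp6v1f fell by 0.73 and 0.60, and the median of -0.33 lay near the -0.39 of Atp6v0d2. Tcirg1, the pump subunit of the osteoclast membrane, was at a log2 fold change of 0.03. Of 12 tested genes for cathepsins and lysosomal phosphatase, Ctsc rose by 1.75 and Ctsl by 1.06, and none fell, with a median of 0.30. Of 3 tested genes of the calcitonin receptor family, Ramp1, an accessory protein of Calcrl, fell by 1.00.

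**Figure D5:**
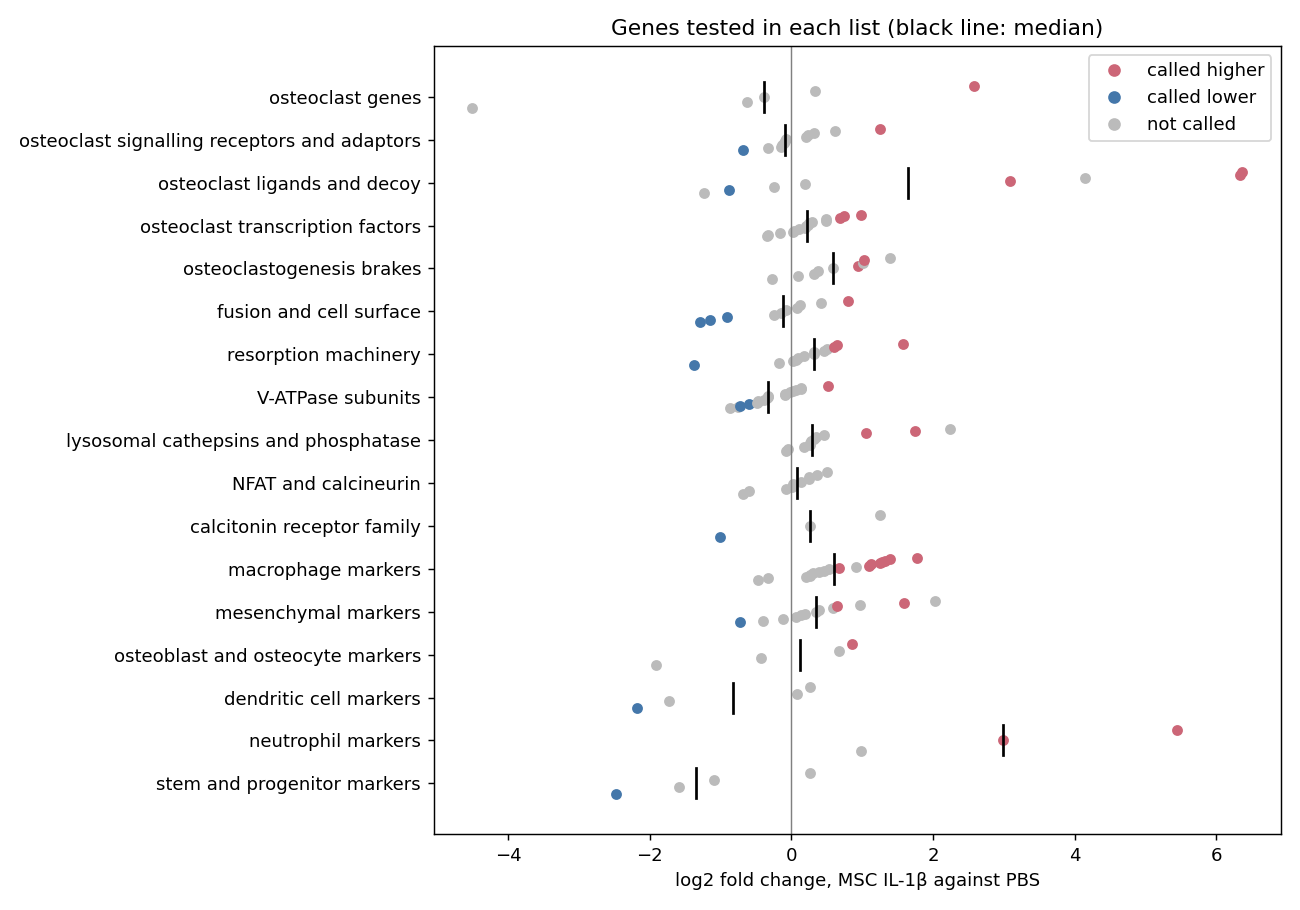
Log2 fold change of IL-1β against PBS in MSC (horizontal axis) for each tested gene of the osteoclast genes and the 16 fixed lists (points are genes, coloured by call, and black lines are list medians). The osteoclast genes span -4.50 to 2.58. The medians of most lists lie to the right of 0, furthest for the neutrophil list (3 tested genes) and then the ligand list. In the ligand and macrophage lists, 3 and 2 genes lie to the left.

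Markers of other cell types were counted in the same libraries. Of the 18 macrophage markers, 8 rose and none fell (median 0.60), among them Lyz2 by 1.77, Cd14 by 1.40, Adgre1 by 1.32 and Fcgr1 by 1.29, while Cd68 at -0.47 did not pass and Ptprc, the leukocyte antigen CD45, at 0.46 was under the size threshold. Of 13 tested mesenchymal markers, Dcn rose by 1.60, Vcam1 by 0.64 and Kitl fell by 0.72 (median 0.34). Col3a1 at 2.04, Col1a1 at 0.98 and Pdgfrb at -0.11 did not pass. Of the 4 tested osteoblast and osteocyte markers, Spp1 rose by 0.86, and Runx2 at -0.42 did not pass (median 0.13). Of the 4 tested dendritic cell markers, Itgax fell by 2.18 (median -0.82), and of the 4 tested stem and progenitor markers Kit fell by 2.47 (median -1.34). Of the 3 tested neutrophil markers, Camp rose by 5.45, from 1 and 2 read pairs under PBS, and Mmp8 by 2.99 (median 2.99). The other 7 neutrophil markers were too shallow to test, and Ngp, Ly6g and S100a9 had no read pairs in any MSC library. The part of any such cells in the values of the osteoclast genes was not tested.

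The genes whose pattern lay closest to each member were ranked by Pearson's r of log2 CPM over the 14 libraries, which share their populations, so that r mostly follows the contrast of MSC and sorted cells. For Acp5 they were Hp (0.915), Ifitm6 (0.853) and Siglece (0.853), and for Nfatc1 Bcl9l (0.955), Dennd5a (0.948) and Elmo2 (0.947). The 3 genes with few or no reads in sorted cells had closer neighbours, namely Nbl1 (0.996), C1qb (0.996) and Mrc2 (0.996) for Atp6v0d2, Mfap5 (0.995), Gpnmb (0.995) and Id3 (0.995) for Ctsk, and Srpk3 (0.996), Prkg2 (0.995) and Pgm5 (0.993) for Dcstamp. The neighbours of Ctsk and Atp6v0d2 thus included both macrophage genes (C1qb, a complement chain, and Gpnmb, a glycoprotein of macrophages and osteoclasts) and stromal genes (Mfap5, a microfibril protein, and Mrc2, a collagen receptor).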

How the data were processed

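RNA was taken from MSC, LSK and LK libraries after ribosomal RNA depletion. The authors deposited read-pair counts per gene, 1 table per population, not normalized. Per the file headers and the submitters' processing notes, reads were trimmed with fastp 0.20.0, aligned with HISAT2 2.0.1 to GRCm38 and counted with featureCounts 2.0.2 by strand, against Ensembl release 100. The header of the MSC table names a further IL-1β library, which is not analysed here. Gene symbols came from GENCODE M21 for 55141 of 55487 identifiers.

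Each population was fitted on its own with edgeR 4.0.16 (filterByExpr, TMM, quasi-likelihood test, Benjamini-Hochberg adjustment over all genes tested). Levels and responses were compared between populations in 1 fit of all 14 libraries. A gene passed when its adjusted p was under 0.05 and it changed by more than 0.5 on the log2 scale. CPM used TMM library sizes of the population, or of all 14 libraries where a common scaling is named. DESeq2 1.42.0, limma-voom 3.58.1, other scalings and filters, and leaving out each library were alternatives. The code was tested on simulated data, in which the design of 2 against 2 MSC libraries gave more false calls than the nominal rate. Libraries of a group differed by more than sampling noise.

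The 8 members and the lists were chosen with earlier results of these data known. Besides the members, genes named were up to 5 genes per list that passed with the largest change in MSC, a fixed set of receptors, ligands, paralogs and markers, and the 3 genes of closest pattern per member. Lepr, Spp1 among the markers, Xist, Ddx3y, Irf8, Nfat5, Rcan1, Rcan2, Ppp3ca, Flt3, Ngp, Ly6g and S100a9 were named after their values were seen.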

Additional observations from a re-analysis of the deposited data

Results flagged for a closer look

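The response of Nfatc1 to IL-1β differed between MSC and LSK, by 1.92 on the log2 scale in the test of the difference itself (edgeR adjusted p = 0.00781). With IL-1β, Nfatc1 lay above the PBS range in both treated MSC libraries and below it in both treated LSK libraries. Neither response passed in the fit of its own population. In the fit of all 14 libraries, which gave the difference of 1.92, the LSK response of -1.54 passed (edgeR adjusted p = 0.00328). The MSC response of 0.38 did not pass there (edgeR adjusted p = 0.649). Irf8, a factor that restrains osteoclast formation, fell in LSK by 2.48 and in LK by 2.59, and its change of 0.10 in MSC did not pass. Nfatc2 fell in LSK by 2.44 and rose in LK by 1.86. The response in MSC minus that in LSK also passed for Irf8 (2.61), Nfatc2 (2.72) and Nfat5 (2.04). It did not pass for Nfatc3 (0.96) and Nfatc4 (5.43). The part of these genes in the Nfatc1 values was not tested. Il1r1, at a log2 change of -1.20 in LSK, did not pass (edgeR adjusted p = 0.131). Culture or animal, genotype and length of treatment cannot be told apart in this difference.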

How the results depend on the processing

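In MSC, 1 of the 8 genes passed. DESeq2 gave 3 (Acp5, Ctsk and Dcstamp), and limma-voom, upper-quartile scaling and keeping all low counts gave 2 each (Acp5 and Ctsk). Leaving out 1 library gave 0 to 3. Acp5 kept its direction under all 12 alternatives and passed in 10, failing where 1 IL-1β library was left out. Upper-quartile scaling also moved the calls over all genes from 945 higher and 570 lower to 817 and 831. Of the other listed genes, 40 passed, 19 in the fit of all 14 libraries and 2 to 71 when 1 library was left out. In LSK none of the 8 passed (edgeR), and DESeq2, no filter and the fit of all 14 libraries gave 1 each (Nfatc1, lower). In LK none passed, and DESeq2 and no filter gave 1 each (Acp5, higher). Leaving out 1 library gave 0 to 1 in LSK, in LK and in the difference of response between MSC and LSK. With the replicate number as a block, 1 passed in LSK (Nfatc1) and 1 in LK (Acp5), and calls over all genes went from 83 to 702 and from 1199 to 2331. Deviations of same-numbered libraries had correlations of 0.19 and -0.02 in LSK and -0.14 and 0.09 in LK for numbers 1 and 2. The deviations of 2 IL-1β libraries from their mean mirror each other, so these correlations cannot decide on pairing. The numbers were not taken as pairs, and the block stands as an alternative. No paired analysis was possible in MSC because the treatments share 1 replicate number. Of 340 alternative values for single genes, 3 turned sign, all without a passing call: Nfatc1 in LK (range -0.10 to 0.46 over left-out libraries), and Acp5 in MSC against LSK (-0.32 to 1.21) and against LK (-1.53 to 0.00489). The causes were not tested. In MSC the changes of Nfatc1 and Atp6v0d2 were under the size threshold in every fit, and Oscar, Calcr and Ocstamp were too shallow to compare.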
